A study of Bos taurus with 6 samples.

Results

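The let-7 and miR-98 seed family was described in extracellular vesicles (EVs) of cow milk. Its members were taken by name, as all listed miRNAs that begin with bta-let-7 together with bta-miR-98. This gave 9 members of 276 known bovine miRNAs, and of 779 known and predicted miRNAs in all. The milk came from 6 Holstein cows in mid lactation, at 101 ± 10 days in milk as the labels give it, kept in climate chambers at 20 °C and 40% humidity. The control diet, a total mixed ration, was fed to 3 cows. The other 3 cows received the replacement diet, with part of the alfalfa hay exchanged for soybean hull and whole cotton seed. Each library was 1 cow, so the replicates were animals, and nothing in the labels linked a control cow to a replacement cow. The labels gave neither the age in years nor the parity of the cows, and the EVs were isolated with a precipitation kit that does not sort vesicles by cell of origin. Fewer vesicles of a cell type and less miRNA per vesicle cannot be told apart in such samples.

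A miRNA guides its target messenger RNAs mainly through its seed, bases 2 to 8 from the 5′ end, and miRNAs with the same seed can share targets. The let-7 family is known as a brake on proliferation and as a promoter of differentiation in animal development, with LIN28, HMGA2 and RAS genes among its classic targets. The protein LIN28 in turn blocks the maturation of let-7 precursors in undifferentiated cells, and mature let-7 is abundant in most adult tissues. Members of the family have been described in milk of many mammals.

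The mature sequences of the 9 members are shown because the members differ in few bases, and a read may fall to one member or to its neighbour by a single base. They were copied from the deposited table, 5′ to 3′, with the seed in capitals.
bta-let-7a-5p: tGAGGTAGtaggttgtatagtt
bta-let-7b: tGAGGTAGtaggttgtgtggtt
bta-let-7c: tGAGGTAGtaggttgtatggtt
bta-let-7d: aGAGGTAGtaggttgcatagtt
bta-let-7e: tGAGGTAGgaggttgtatagt
bta-let-7f: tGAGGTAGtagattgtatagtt
bta-let-7g: tGAGGTAGtagtttgtacagtt
bta-let-7i: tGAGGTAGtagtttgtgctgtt
bta-miR-98: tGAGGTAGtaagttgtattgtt

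All 9 members carried the seed GAGGTAG, and 8 of them were listed with 22 nt. The exception was bta-let-7e with 21 nt. Of the 22 positions, 14 held the same base in every member that reached them, and the 8 that differed all lay outside the seed. Counted from the 5′ end with bta-let-7a-5p as the reference, bta-let-7f differed by G12A, bta-let-7c by A19G and bta-let-7e by T9G. A pair of changes separated bta-let-7b (A17G, A19G), bta-let-7d (T1A, T16C), bta-let-7g (G12T, T18C) and bta-miR-98 (G11A, A19T) from the reference. The most distant from it was bta-let-7i, with G12T, A17G, T18C and A19T. Over the 36 pairs of members the number of differences ran from 1 to 6, and 4 pairs differed by 1 base, namely the 3 single-base neighbours of bta-let-7a-5p and the pair of bta-let-7b and bta-let-7c (G17A). The number of G and C bases was lowest in bta-let-7f and bta-miR-98 (7 each) and highest in bta-let-7b (10). How reads matching more than 1 of these sequences were assigned, and whether strand was used, is not given in the sources used here, so the counts of the single-base neighbours are uncertain in this respect.

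All 9 members had a gene in the RefSeq annotation of ARS-UCD2.0, 12 genes in all. The authors used ARS-UCD1.2, so only names and neighbours are given. Of these, 3 encode bta-let-7a-5p, 2 encode bta-let-7f and each other member has 1 gene, so a count of bta-let-7a-5p or bta-let-7f sums over loci. Within 10 kb of each other lay MIRLET7A-1, MIRLET7F-1 and MIRLET7D, and likewise MIRLET7A-3 with MIRLET7B within an uncharacterized protein-coding gene. The genes MIR2443 and MIR3596 also lay within 10 kb of both MIRLET7A-3 and MIRLET7B. The gene MIR98 lay beside MIRLET7F-2 inside the span of HUWE1, which encodes a ubiquitin ligase. Members of the miR-10 family neighboured the remaining clusters, MIR99A beside MIRLET7C, MIR99B with MIR125A beside MIRLET7E, and MIR100 beside MIRLET7A-2. For MIRLET7C and MIRLET7A-2 a miR-125b gene also lay within 60 kb, as did MIR12038 for MIRLET7E and MIR135A-1 for MIRLET7G. No other miRNA gene lay within 10 kb of MIRLET7G, inside the span of WDR82, or of MIRLET7I.

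The known miRNAs received 61156 to 176919 counts per cow, and the family received 7226 to 18920 of these. The deepest libraries in this respect were control cow 2 and replacement cow 1, with 161240 and 176919 known counts, against 61156 to 96254 in the other 4 cows. A member without a count could have held up to 0.0017% to 0.00491% of the known counts (3 counts), and every member was counted in every cow. Intervals and limits cover counting error only, since PCR copies of 1 molecule are counted as separate reads. The 8 markers listed for mammary epithelium together held 0.399% to 1.13% of the known counts, of which bta-miR-148a alone held 0.351% to 0.851%. Only 2 of these 8 were counted in every cow, bta-miR-148a and bta-miR-375 (10 to 100 counts). For the remaining markers the highest count in any cow was 92 for bta-miR-200a, 48 for bta-miR-205 and 28 for bta-miR-200c. It was 13 for bta-miR-429, 11 for bta-miR-141 and 1 for bta-miR-200b. The 7 measured red blood cell markers held 20.1% of the known counts in control cow 3 and 6.52% to 10.9% in the other 5 cows, and the 7 leukocyte markers held 1.35% to 2.49%.

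The family as a whole held 10.1% to 12.5% of the known miRNA counts. Its share of the known counts was 10.3%, 11.1% and 11.8% in control cows 1, 2 and 3, and 10.7%, 10.1% and 12.5% in replacement cows 1, 2 and 3. The diet means were 11.1% ± 0.739 (control) and 11.1% ± 1.25 (replacement, SD, n = 3 each), and their difference of 0.0421 percentage points was smaller than either SD (p = 1 in a two-sided exact permutation test). With 3 cows a diet, this test has a smallest p of 0.1. The coefficient of variation over the 6 cows was 8.27% for the family total. For single members with at least 100 counts in every cow it ran from 13.5% to 40.7%, with a median of 27.4% over 7 members, beside a median of 29.3% over the 49 known miRNAs that met the same minimum. The sum thus varied less than any of these 7 members, as a sum can where its parts do not all rise and fall together. Whether the members offset each other was not tested. The median member varied about as much as the median known miRNA of that minimum. The least variable of the 49 single miRNAs, at 8.47%, was about as constant as the family total, so such constancy was not particular to the family.

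Other totals gave another picture of the same counts. As a share of known and predicted miRNAs together, the mean was 2.43% ± 0.694 for the control and 3.76% ± 0.661 for the replacement diet (SD, n = 3 each). There was no overlap between the diets here (p = 0.1, exact permutation test). Of the 9 members, 4 were higher on the replacement diet without overlap in this share (bta-let-7a-5p, bta-let-7b, bta-let-7g and bta-miR-98), where 11.7% of the 128 known miRNAs that passed the filter on low counts were. Known miRNAs made up 15.8% to 29.0% of all miRNA counts in control cows 1 to 3 and 25.7% to 42.0% in replacement cows 1 to 3. In each cow the family share here is this part times the family share of the known counts. The latter had a mean of 11.1% on the control diet and 11.1% on the replacement diet. For single members, the part of the known fraction in the difference was not tested. In RPM, the authors' scaling of counts to the read total of each cow, the family reached 556, 1416 and 581 RPM in control cows 1 to 3 and 1415, 804 and 691 RPM in replacement cows 1 to 3. These values overlapped between diets (exact permutation test, p = 0.6), and the same 2 cows with the most known counts stood highest.

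Within the family, bta-let-7f was the leading member in all 6 cows, and bta-let-7f, bta-let-7a-5p and bta-let-7b together held 80.4% to 84.2% of the family counts. The make-up of the family differed between single cows by more than counting error, as did that of all known miRNAs. Between 2 cows, 4.47% to 21.6% of the family counts would have to change member to make the make-up equal, and the chi-square per degree of freedom ran from 10.4 to 146. Over all known miRNAs the same pairs of cows gave 22.7 to 123. Cows on the same diet were as far apart (median 11.7% over 6 pairs) as cows on different diets (median 9.66% over 9 pairs). The most unlike cows, control cows 2 and 3, shared a diet.

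**Figure D1:**
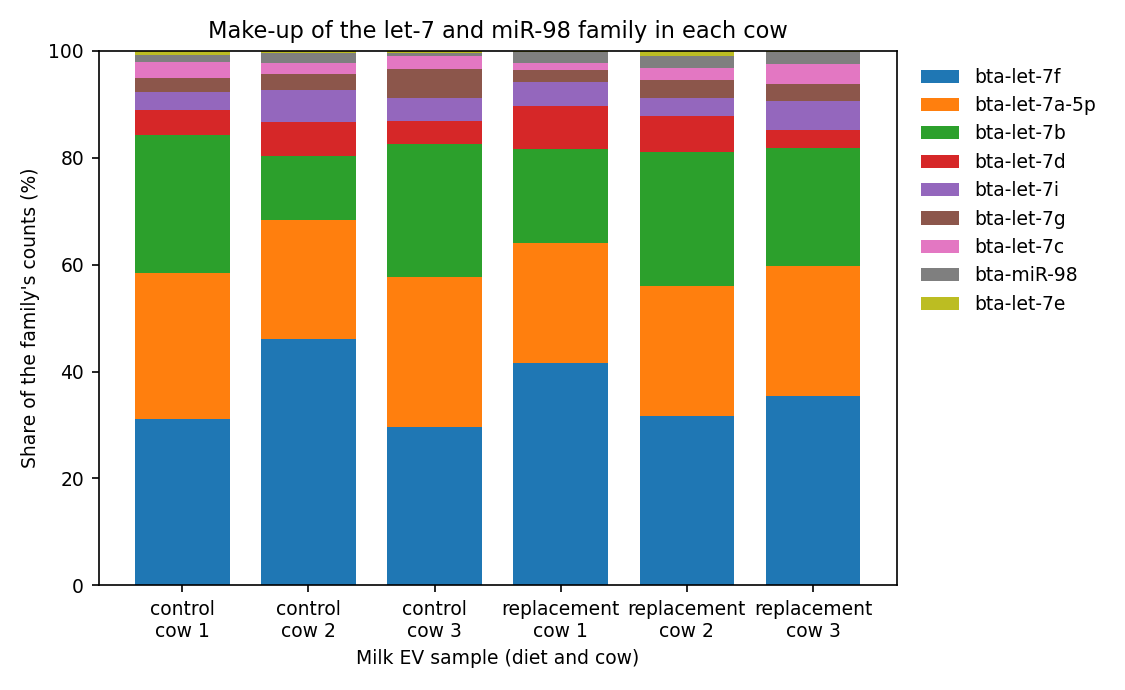
Share of the family's counts (%, vertical axis) held by each of the 9 members, stacked, in each of the 6 milk EV samples (horizontal axis, diet and cow). The part of bta-let-7f is largest in control cow 2 (46.1%) and replacement cow 1 (41.7%), where the part of bta-let-7b is smallest (12.1% and 17.5%).

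The leading member, bta-let-7f, held 31.2%, 46.1% and 29.7% of the family counts in control cows 1, 2 and 3, and 41.7%, 31.8% and 35.4% in replacement cows 1, 2 and 3. It was high in control cow 2 (95% Wilson interval 45.4% to 46.8%) and replacement cow 1, and the diets overlapped. For bta-let-7b the same values were 25.9%, 12.1% and 25.1% on the control diet and 17.5%, 25.1% and 22.1% on the replacement diet. It was thus lowest in the 2 cows in which bta-let-7f was highest. Shares of 1 total are linked, since a larger share of one member lowers those of the others. In RPM, bta-let-7b was at 172 in control cow 2 and at 247 in replacement cow 1, against 144 to 202 in the remaining cows. The ratio of bta-let-7f to bta-let-7b was 3.81 and 2.38 in these 2 cows, against 1.18 to 1.60 in the remaining cows. The remaining large member, bta-let-7a-5p, held 27.1%, 22.2% and 27.9% in control cows 1 to 3 and 22.4%, 24.2% and 24.3% in replacement cows 1 to 3. Among the 9 members it kept the most constant proportion to the rest of the family, with an SD over cows of 0.18 for the log2 ratio, against 0.36 to 0.87 for the others. The 2 cows that stood apart were those with the most known counts, and bta-let-7f has 7 G and C bases where bta-let-7b has 10. The part of depth or base composition in this pattern was not tested.

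Of the middle members, bta-let-7d held 4.78%, 6.31% and 4.22% of the family counts in control cows 1 to 3 and 8.14%, 6.75% and 3.41% in replacement cows 1 to 3. Replacement cow 3 was the lowest and replacement cow 1 the highest, so the replacement diet spanned the control diet. The values of bta-let-7i were 3.35%, 6.01% and 4.33% on the control diet and 4.41%, 3.37% and 5.41% on the replacement diet. Those of bta-let-7g were 2.62%, 2.89% and 5.48% on the control diet and 2.38%, 3.35% and 3.21% on the replacement diet, with control cow 3 well above the other 5 cows. For bta-let-7c they were 2.99%, 2.09% and 2.42% against 1.32%, 2.19% and 3.79%, and again both extremes were replacement cows.

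The rarest member was bta-let-7e, on 24 to 96 counts per cow. It held 0.741%, 0.499% and 0.332% of the family counts in control cows 1 to 3 and 0.196%, 0.985% and 0.310% in replacement cows 1 to 3. Its 95% Wilson interval in replacement cow 2, with a lower bound of 0.807%, was above those of the other cows except control cow 1, so its spread was not counting error alone.

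For bta-miR-98, which has the let-7 seed under another name, the shares of the family counts were 1.32%, 1.81% and 0.567% in control cows 1, 2 and 3, and 2.01%, 2.25% and 2.11% in replacement cows 1, 2 and 3. It was the only member whose share of the family did not overlap between diets, higher on the replacement diet at 2.12% ± 0.120 (SD, n = 3) than on the control diet at 1.23% ± 0.624 (SD, n = 3). The difference was 0.892 percentage points (p = 0.1 in the exact permutation test, which can go no lower, unadjusted for the 9 members compared). Of the 128 known miRNAs that passed the filter, 3.12% stood higher on the replacement diet without overlap when set against the family total. The nearest cows, control cow 2 and replacement cow 1, had overlapping counting intervals (95% Wilson intervals 1.62% to 2.01% and 1.82% to 2.22%). Control cow 3, which held the lowest value on 41 counts, also held the highest red blood cell share, and its part in the difference showed in the values without it, when the difference was 0.560 percentage points and the diets still did not overlap. As a share of the known counts, bta-miR-98 was 0.136%, 0.200% and 0.067% on the control diet and 0.215%, 0.228% and 0.264% on the replacement diet, again without overlap, as in 3.91% of the 128 known miRNAs. In RPM the diets overlapped (12.1 ± 11.9 against 20.4 ± 7.20, SD, n = 3 each). For the other 8 members the difference between diets in the share of the family gave p from 0.4 to 1 (exact permutation tests).

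**Figure D2:**
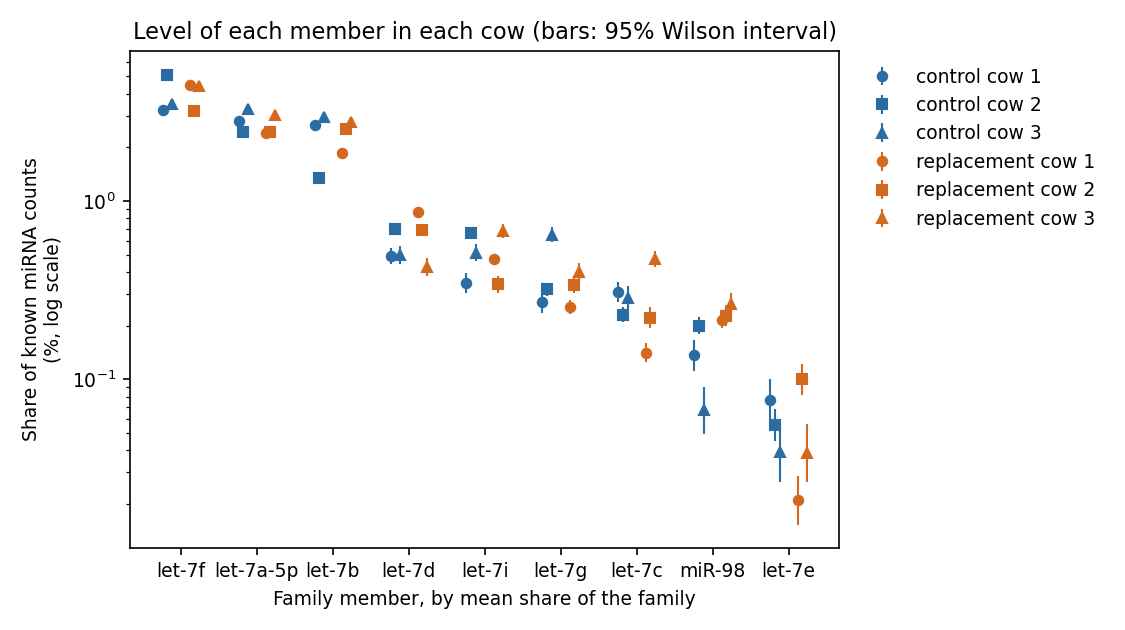
Share of the known miRNA counts (%, log scale, vertical axis) of each member (horizontal axis, by mean share of the family) in each of the 6 cows, with control cows in blue and replacement cows in orange. Bars are 95% Wilson intervals. Only for bta-miR-98 do all replacement cows (0.215% to 0.264%) lie above all control cows (0.067% to 0.200%).

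In the order of the members, bta-let-7f exceeded bta-let-7a-5p in 6 of 6 cows, by 1.44-fold as the geometric mean over cows. Next, bta-let-7a-5p exceeded bta-let-7b in 5 of 6 cows by 1.19-fold, with a mean difference of 3.40 ± 3.77 (SD, n = 6) percentage points of the family, so these neighbours did not differ beyond the spread. The step from bta-let-7b to bta-let-7d was the widest, 3.84-fold and present in 6 of 6 cows. Below it, bta-let-7d, bta-let-7i, bta-let-7g, bta-let-7c and bta-miR-98 followed each other in steps of 1.23- to 1.53-fold, each seen in 4 or 5 of 6 cows, and no neighbours among these 5 differed beyond the spread. The last step, from bta-miR-98 to bta-let-7e, was 3.47-fold in 6 of 6 cows. Among the known miRNAs the rank of the members ran from 4 to 7 for bta-let-7f, from 48 to 74 for bta-miR-98 and from 67 to 107 for bta-let-7e.

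Ratios between members do not depend on the library total. For the single-base pair in which bta-let-7f is set over bta-let-7a-5p, the ratio of counts was 1.15, 2.08 and 1.06 in control cows 1 to 3 and 1.86, 1.31 and 1.46 in replacement cows 1 to 3. The mean log2 ratio was 0.53 ± 0.38 (SD, n = 6), and its difference between diets, 0.16, was smaller than that spread (exact permutation test, p = 0.6). A further single-base pair, bta-let-7b and bta-let-7c, had ratios of 8.65, 5.81 and 10.3 on the control diet and 13.2, 11.5 and 5.84 on the replacement diet. Here too the diets overlapped (difference 0.26 on the log2 scale, exact permutation test, p = 0.5), and the difference rested on single cows, at 0.023 without control cow 2, 0.027 without replacement cow 1 and 0.62 without replacement cow 3. The ratio of bta-let-7g to bta-let-7i, which share the base at position 12, was 0.783, 0.481 and 1.27 against 0.539, 0.997 and 0.594 (difference -0.19 on the log2 scale, exact permutation test, p = 0.7), so even the order of this pair turned in control cow 3. The fourth pair, bta-miR-98 and bta-let-7f, was chosen because the genes MIR98 and MIRLET7F-2 are neighbours. Its ratio was 0.0422, 0.0392 and 0.0191 in control cows 1 to 3 and 0.0482, 0.0707 and 0.0597 in replacement cows 1 to 3. The difference of 0.90 on the log2 scale had no overlap between diets (exact permutation test, p = 0.1, unadjusted for the 4 pairs), and without control cow 3 it was 0.53 (p = 0.2, exact permutation test). Of the other ratios looked at after the values were seen, bta-miR-98 to bta-let-7a-5p was nearly the same in the 3 replacement cows (0.0897, 0.0927 and 0.0870) and ran from 0.0203 to 0.0815 in the control cows.

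**Figure D3:**
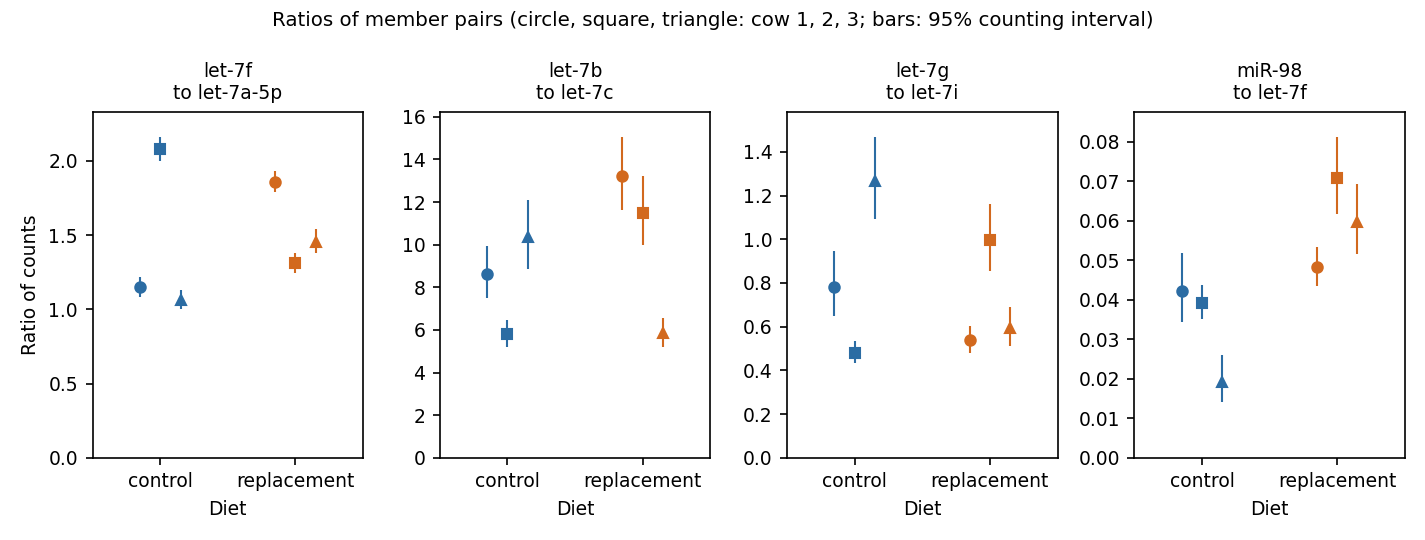
Ratio of counts (vertical axis, linear, from 0) of 4 pairs of members in the control and replacement cows (horizontal axis), with circle, square and triangle for cows 1, 2 and 3 of a diet and bars for 95% counting intervals. The diets overlap for the first 3 pairs, while for bta-miR-98 to bta-let-7f the 3 replacement cows (0.0482 to 0.0707) lie above the 3 control cows (0.0191 to 0.0422).

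The relation between members was measured by the SD over cows of the log2 ratio of each pair, which is small where 2 members keep a constant proportion. The median was 0.56 over the 21 pairs of the 7 members with at least 100 counts in every cow, beside 0.64 over all 1176 pairs of known miRNAs that met this minimum. The closest pair was bta-let-7f and bta-let-7i (SD 0.24, where counting error alone gives 0.075), whose ratio varied 1.44-fold between the extreme cows. It was followed by bta-let-7a-5p with bta-let-7b (0.33), with bta-let-7g (0.36) and with bta-let-7f (0.38). The closest pair differs by 4 bases. Among the 4 pairs that differ by 1 base, the SD was 0.38, 0.46 and 0.84 for bta-let-7a-5p with bta-let-7f, bta-let-7c and bta-let-7e. It was 0.50 for bta-let-7b with bta-let-7c. Those without bta-let-7e, which fell short of the count minimum, lay below the median of 0.56. The farthest pair of the 7 was bta-let-7c and bta-let-7d (0.96, a 6.85-fold range). Pairs with bta-let-7e or bta-miR-98 ran from 0.66 to 1.11, where counting error alone gives 0.13 to 0.26. In every pair the SD was above that of counting error. These values describe 6 cows of 2 diets, and the members of 1 library share its depth.

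**Figure D4:**
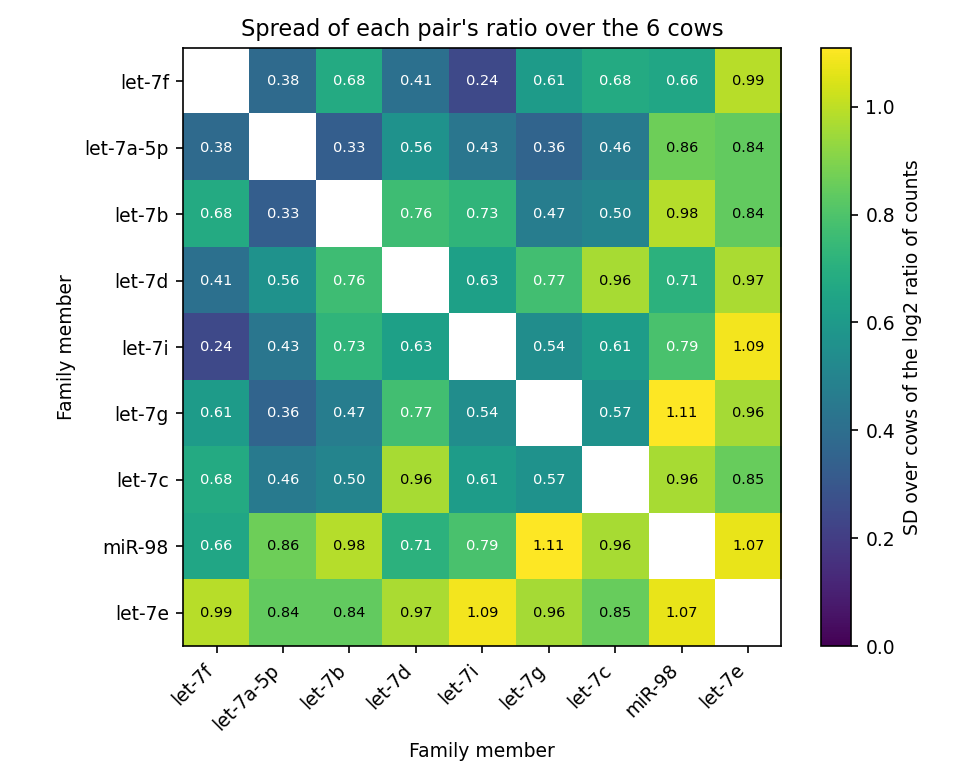
SD over the 6 cows of the log2 ratio of counts for each of the 36 pairs of members (both axes list the members, the colour scale gives the SD). The darkest field is bta-let-7f with bta-let-7i (0.24), the lightest is bta-let-7g with bta-miR-98 (1.11), and the fields of bta-miR-98 and bta-let-7e run from 0.66 to 1.11.

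Mature miRNAs with neighbouring genes differed in their read counts. In the cluster of MIRLET7E, bta-let-7e stood at 0.0167 to 0.0587 times the count of bta-miR-125a and at 0.0373 to 0.128 times that of bta-miR-99b, whereas bta-miR-99b and bta-miR-125a kept a ratio of 0.306 to 0.486. In that of MIRLET7C, bta-let-7c was at 0.101 to 0.199 times the count of bta-miR-99a-5p. From the cluster with MIRLET7D, the ratio of bta-let-7d to bta-let-7f was close in the control cows (0.153, 0.137 and 0.142) and wide in replacement cows 1 to 3 (0.195, 0.213 and 0.0964). These ratios were chosen after the values were seen and were not tested. Ligation and amplification can favour one sequence over another, so ratios between different miRNAs are ratios of reads.

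The known miRNA whose level followed the family total most closely was bta-miR-342, with an SD over the 6 cows of 0.17 for its log2 ratio to the family, among the 42 known miRNAs outside the family with at least 100 counts in every cow (median 0.48). After it came bta-miR-26a (0.20), bta-miR-92a (0.20), bta-miR-181a (0.26) and bta-miR-484 (0.26). This order depended on single cows. Without control cow 3, bta-miR-26a came first, ahead of bta-miR-181a, bta-miR-92a and bta-miR-342, and 3 of these 5 stayed among the closest 5 without replacement cow 1, without replacement cow 3 or with a higher count minimum.

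The diets were compared per miRNA in 1 fit of edgeR over the 227 known and predicted miRNAs that passed its filter, which all 9 members did. None of the 9 members passed an adjusted p of 0.05, beside 0% of all 227 miRNAs, and none had an unadjusted p under 0.05, beside 3.52% of all. DESeq2 called 3 of 767 miRNAs, run without that filter, and limma called 0 of 227, and no member was among the calls. The log2 fold changes of the members, replacement over control, ran from -0.29 to 0.74 with a median of -0.07, beside 0.03 for all miRNAs tested. The largest was that of bta-miR-98 at 0.74 (SE 0.62, Benjamini-Hochberg adjusted p = 0.986 by the quasi-likelihood test of edgeR). Those of bta-let-7d (0.32, SE 0.55) and bta-let-7g (-0.29, SE 0.45) were smaller than their errors, as were those of the other 6 members. Other scalings moved all miRNAs at once, with a median of 0.17 with RLE size factors and 0.63 with library size alone, so the signs of bta-let-7a-5p, bta-let-7c and bta-let-7i turned with both scalings, and those of bta-let-7e and bta-let-7g with library size alone. That of bta-miR-98 was positive in each of them. Of the 5 cluster partners, bta-miR-99a-5p, bta-miR-99b, bta-miR-100, bta-miR-125a and bta-miR-125b, 0 passed the test in either direction, and their log2 fold changes ran from -0.23 to 0.16.

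**Figure D5:**
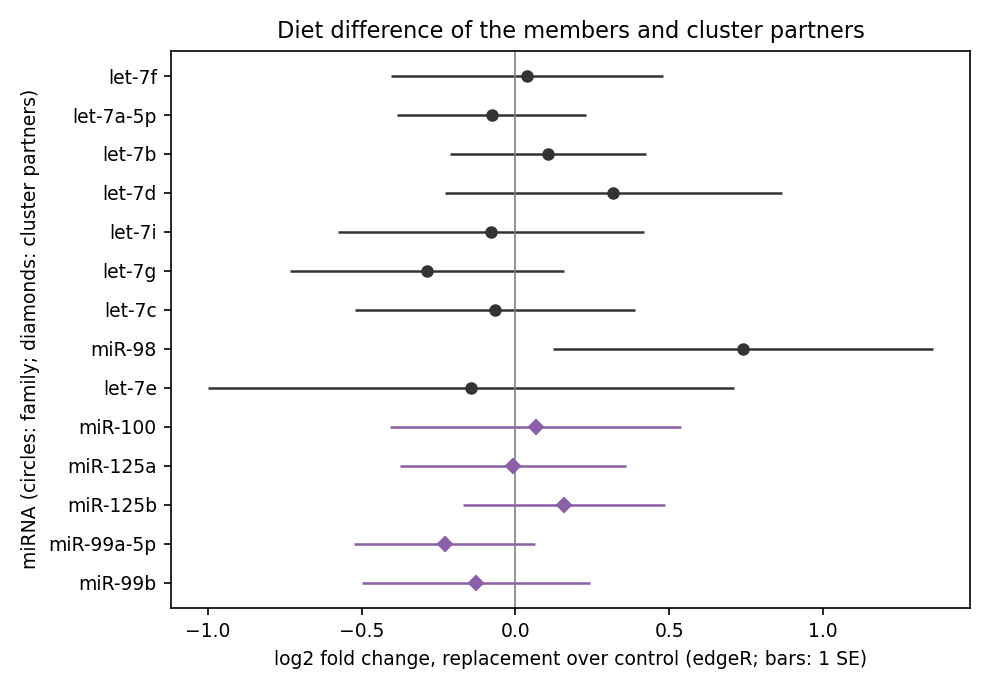
Log2 fold change, replacement over control diet, from edgeR (horizontal axis, bars of 1 SE) for the 9 members (circles) and the 5 cluster partners (diamonds). All values lie between -0.29 and 0.74, with bta-miR-98 the highest, and none had an adjusted p under 0.05.

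No listed miRNA other than the members came within 4 mismatches of a member or of its reverse complement over at least 16 bases, in 770 sequences searched. A single predicted miRNA, novel393_mature, shared the seed at bases 2 to 8.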

How the data were processed

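Small RNA libraries of milk EVs from 6 cows, 3 per diet, were used, with diet and cow number taken from the labels. Per the paper's methods, trimming was done with Cutadapt 1.14, clean reads were matched to the cow genome (ARS-UCD1.2, and Bowtie, in the submitters' processing notes), other small RNA was filtered out through Rfam, and miRBase and miRDeep2 gave the known and the predicted miRNAs. The main table the authors deposited holds raw read counts for every mature miRNA, beside its sequence. A further table that the authors deposited holds RPM values, under the name TPM. The authors' table of their own fold changes and p-values was left unused.

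Shares, ratios, 95% Wilson intervals and exact permutation tests over cows were computed in Python 3.11.15 (pandas 2.3.3, numpy 2.4.6, scipy 1.17.1). Differential tests used edgeR 4.0.16 (TMM, default filter, quasi-likelihood, Benjamini-Hochberg) across all miRNAs, in R 4.3.3, and alternatives used limma 3.58.1 and DESeq2 1.42.0. The tests of edgeR, limma and DESeq2 were also run on simulated counts, a check whose outcome is not given here. SEs of edgeR were taken as the fold change over the root of its F value. Diets were not paired, since nothing in the labels linked same-numbered cows.

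Other alternatives were other totals, averaging, count minimums and each cow left out. The members and lists were chosen with earlier results of these data known. Named miRNAs were the members, 5 cluster partners, the 5 known miRNAs closest to the family total, similar sequences and, where a result turned on them, markers. No hairpin sequences were used here.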

Additional observations from a re-analysis of the deposited data

Results flagged for a closer look

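Dixon's ratio was computed over the 6 cows for 23 values, namely the share of each member in the known and in the family counts, the family share and 4 ratios. A single value passed the limit, where a rate of 5% gives 1.15 by chance. In control cow 3, bta-let-7g held 5.48% of the family counts, with 4.98% to 6.03% as the 95% Wilson interval, and the remaining cows lay between 2.38% and 3.35%. Its share of the known counts, 0.648% against 0.254% to 0.402%, was just inside the limit of this check. The summed share of the red blood cell markers was highest in the same cow. Of these markers, bta-miR-16b was higher in replacement cow 2 (0.0613% against 0.0507% of the known counts). The part of the red blood cell markers in the value of bta-let-7g was not tested.

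Outside the known miRNAs, the predicted novel393_mature carried the family seed. Its sequence is shown because it shares only the seed with the members and has at least 7 mismatches to each of them over 16 or more bases.
novel393_mature: aGAGGTAGaggggcccagc
It had 9 counts, all in control cow 1, and 0 counts in the other 5 cows.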

How the results depend on the processing

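Across all alternatives no member was called, and the adjusted p of the members ran from 0.588 to 0.999. With library size alone, bta-let-7b had an unadjusted p of 0.0494 in the edgeR quasi-likelihood test (adjusted p = 0.623). It was the only member under 0.05 before adjustment in any setting. edgeR called 0 of 227 miRNAs (8 at an unadjusted p under 0.05), 15 without a filter on low counts and 0 to 1 with a cow left out (1 without control cow 2, 1 without control cow 3), and DESeq2 called 3. With the cow number as a replicate block, edgeR called 0 and the log2 fold change of bta-let-7i was 0.0014. Deviations of same-numbered cows from the diet means correlated at -0.110, -0.158 and 0.177, and control cow 2 correlated more with replacement cow 1 (0.322). With 3 cows a diet, such correlations cannot show whether cows were paired. The numbers were not taken as pairs because the labels gave no such link.

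Small log2 fold changes turned sign with RLE size factors, library size alone and DESeq2, in this order, for bta-let-7a-5p (0.054, 0.54 and 0.029), bta-let-7c (0.070, 0.55 and 0.040) and bta-let-7i (0.073, 0.51 and 0.040). With library size alone those of bta-let-7e (0.49) and bta-let-7g (0.39) turned as well. For known miRNAs alone without control cow 3, a setting chosen after seeing the data, bta-let-7f was at -0.086 and bta-let-7g at 0.096. Without bta-miR-98 the diet difference in the family share was -0.0591 percentage points, and with pooled counts that of bta-let-7f in the family was -1.47. Against known and predicted miRNAs the family mean was 3.09%. The cause of these shifts was not tested.

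With each cow left out in turn, the log2 fold change ran from -0.25 to 0.041 for bta-let-7a-5p, -0.0012 to 0.22 for bta-let-7b, -0.44 to 0.10 for bta-let-7c, -0.23 to 0.79 for bta-let-7d, -0.98 to 0.14 for bta-let-7e, -0.32 to 0.55 for bta-let-7f, -0.50 to -0.030 for bta-let-7g, which kept its direction, and -0.38 to 0.45 for bta-let-7i. For bta-miR-98 it stayed positive, from 0.29 (without control cow 3) to 1.45 (without control cow 2). The diet difference in the family share ran from -0.659 to 0.535 percentage points. In the share of the family it ran from -3.90 to 2.98 for bta-let-7b, -0.747 to 0.486 for bta-let-7c, -0.0210 to 2.35 for bta-let-7d, -0.271 to 0.123 for bta-let-7e, -2.39 to 5.82 for bta-let-7f, -1.20 to 0.227 for bta-let-7g and -0.775 to 0.555 for bta-let-7i, while bta-let-7a-5p (-3.88 to -1.02) and bta-miR-98 (0.560 to 1.18) kept their direction. The log2 ratio difference ran from -0.019 to 0.46 for bta-let-7f to bta-let-7a-5p, from 0.023 to 0.62 for bta-let-7b to bta-let-7c, from -0.54 to 0.16 for bta-let-7g to bta-let-7i and from 0.53 to 1.10 for bta-miR-98 to bta-let-7f. The mean shares and mean ratios of all members and pairs moved by less than 1 SD between cows in every alternative. For the median, a single diet and a cow left out, a mean cannot move by more than this, so these alternatives could not fail. With 3 cows a diet, no exact test here could pass 0.05, and bta-let-7e (24 to 96 counts) and bta-miR-98 (41 to 380 counts) were limited by depth.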
